A study of Mus musculus with 10 samples.

Results

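The genes described here build ribosomes. They are 43 mouse genes that act in transcription of ribosomal RNA (rRNA), in its processing and modification, and in assembly of the ribosomal subunits, together with abundant proteins of the nucleolus. They were listed by name, and a gene probe was assigned to a listed gene where its accession led to that symbol through RefSeq. A probe was assigned for 38 of the 43. Of these, 36 gave signal above background on at least 3 arrays and were tested among 14478 genes. Bysl was above background on 1 of the 10 arrays and Wdr12 on 0, so neither was tested. Rrn3, Dkc1, Wdr43, Utp20 and Ddx10 had no probe that could be assigned in this way and were not analysed here.

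RNA of 10 colon samples from 3 CYP1A-humanized mice was hybridised to oligonucleotide arrays, 1 sample to an array with 1 dye; in these animals human CYP1A genes replace the mouse ones. All mice were kept on the AIN93M diet and had the same exposure, normal samples included: 2 doses of 100 mg/kg PhIP, an amine formed in cooked meat, at 6 weeks of age, 1.5% dextran sulfate sodium (DSS, an agent that damages the colon lining) for 1 week, and 8 weeks without treatment before sampling at 16 weeks. The tumor group held 7 tubular adenomas, labelled as carrying a dominant active mutant of Ctnnb1, the gene of beta-catenin, and the normal group held 3 samples of adjacent epithelium with wild type Ctnnb1. From mouse 41 (male) and from mouse 42 (female) came 3 tumors and 1 normal, from mouse 43 (male) 1 of each, so the tumors came from 3 animals and not from 7.

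Levels are log2 intensities after background correction and quantile normalization. A gene passed the test where the Benjamini-Hochberg adjusted p of limma, over all 14478 genes and with the mouse as a block, was under 0.05. Between 57.7% and 66.7% of the gene probes of an array were above background. The highest raw spot median of a tested member was 4516, for Nop58, and saturation of single pixels was not examined. Of the 10 arrays, 2 stood apart by keratins and other genes of squamous epithelium, which the colon lacks: the mean of 8 such genes lay 2.07 above the mean of the normals on the log2 scale in the normal sample of mouse 42 and 2.08 above it in the mouse 43 tumor, while the remaining 8 arrays had values of -1.56 to -0.85. In addition, 4 tumor arrays and no normal array were read in a later scan session, and the names of those scans mark them as redipped or rescanned. The leading counts below are therefore also given without those arrays. In bulk tissue, a change in the share of a cell type and a change in RNA per cell cannot be told apart.

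Ribosome production starts in the nucleolus, where RNA polymerase I copies the rRNA genes into a long precursor. Small nucleolar ribonucleoproteins (snoRNPs) direct the modification of this precursor, and processing complexes cut it while ribosomal proteins join, giving the small and the large subunit. Many genes of this pathway are known targets of the transcription factor Myc, and in the colon they are known to be most active in the dividing cells of the crypt base.

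The promoters of several members are shown because 2 short motifs recur in them: the E-box CACGTG, which Myc with its partner Max can bind, and CCGGAAG, the core of sites bound by ETS factors. Each window runs from 250 bases before to 50 bases after the annotated start, in the direction of transcription, and comes from RefSeq on GRCm38.p6. Capitals mark the 2 motifs on either strand. In these windows the 2 motifs do not overlap. Ltv1 (chr10:13193088-13193387, minus strand) holds both, Nop2 (chr6:125131633-125131932, plus strand) holds both, Pes1 (chr11:3963725-3964024, plus strand) holds an E-box, and Nhp2 (chr11:51619523-51619822, plus strand) holds an ETS core. In Ltv1 the E-box begins at base 29 of the transcript and the ETS cores begin 98 and 55 bases before the start.
Ltv1: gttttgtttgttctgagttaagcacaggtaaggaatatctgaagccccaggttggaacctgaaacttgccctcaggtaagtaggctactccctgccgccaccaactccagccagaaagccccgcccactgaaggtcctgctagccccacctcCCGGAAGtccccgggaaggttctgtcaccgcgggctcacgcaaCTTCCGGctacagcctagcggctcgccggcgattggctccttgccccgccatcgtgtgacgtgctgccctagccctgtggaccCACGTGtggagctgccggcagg
Nop2: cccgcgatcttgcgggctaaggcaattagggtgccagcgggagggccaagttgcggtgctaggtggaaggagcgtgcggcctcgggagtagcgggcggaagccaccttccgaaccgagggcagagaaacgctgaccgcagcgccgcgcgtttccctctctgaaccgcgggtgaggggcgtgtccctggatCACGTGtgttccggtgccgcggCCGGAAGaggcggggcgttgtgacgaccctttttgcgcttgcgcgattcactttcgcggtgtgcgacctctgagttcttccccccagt
Pes1: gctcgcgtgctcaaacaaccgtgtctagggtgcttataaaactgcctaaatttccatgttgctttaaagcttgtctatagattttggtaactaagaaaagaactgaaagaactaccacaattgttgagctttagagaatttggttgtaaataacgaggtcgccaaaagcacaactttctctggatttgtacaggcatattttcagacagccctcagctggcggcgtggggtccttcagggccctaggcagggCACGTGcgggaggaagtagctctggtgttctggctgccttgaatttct
Nhp2: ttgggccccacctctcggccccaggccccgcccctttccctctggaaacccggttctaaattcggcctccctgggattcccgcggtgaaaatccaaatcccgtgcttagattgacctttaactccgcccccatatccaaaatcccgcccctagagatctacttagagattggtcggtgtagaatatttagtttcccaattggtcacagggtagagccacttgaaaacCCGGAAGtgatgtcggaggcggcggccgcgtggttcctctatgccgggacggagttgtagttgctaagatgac

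Windows were matched for 38 of the 43 genes. The E-box occurred in 7 of the 38 (18.4%), against 8.91% of 17491 protein-coding genes with a window of the same length. The ETS core occurred in 14 of the 38 (36.8%), against 12.9%. Of 2 further motifs searched on both strands, the GC-rich motif of NRF1 occurred in 6 windows (15.8%, against 7.17%) and CAAGATGGC, bound by YY1, in 0 (against 1.65%). Among the 31 measured members with a window, the shares were 12.9% for the E-box, 38.7% for the ETS core and 9.68% for NRF1. The members with an E-box that were measured were Ltv1, Nop2, Pes1 and Mybbp1a, and all 4 passed the test as higher in tumors, as did 23 of the 31 measured members with a window. Of those 23, 9 held an ETS core (39.1%), and of the 8 that did not pass 3 did (37.5%). A match describes these letters only and says nothing of binding.

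Most of the measured genes were higher in the tumors. Of the 36 members, 26 passed as higher and 0 as lower, where 25.9% of all genes tested passed as higher and 23.8% as lower. All 7 measured snoRNP genes and all 4 abundant nucleolar genes rose, while 3 of the 4 genes for rRNA transcription did not pass. The differences were modest: the median member lay 0.46 above the normals on the log2 scale, against 0.01 for all genes, and only Ltv1 was at least 2-fold higher, as were 5.99% of all genes. In 34 of the 36 members the fitted difference was above 0. All 7 tumors lay above all 3 normals in 22 members, as in 21.4% of all genes, and all 7 lay below in 0 members, as in 20.1% of all genes. In 27 members every tumor lay above the normal of its own mouse, as in 26.9% of all genes.

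The size of that count depends on how the pixels of a spot are summarised. The values here use the spot mean. With the spot median, 6 of 36 members passed as higher (9.35% of all genes), and the median difference was 0.19. In the authors' deposited table, which is built on spot medians, 4 of 35 passed, a share of 11.4% that lies near the 11.6% of all genes. Without the 2 arrays with squamous genes, 7 passed (8.51% of all genes) with the mouse as a block and 21 without it (20.9%). In that blocked fit mouse 41 alone has both tissues, so its arrays alone set the difference. Within the earlier scan session 12 passed (11.3%), and 19 did so without the block (19.8%). There mouse 43 has no tumor array left and adds nothing to the blocked difference. Leaving out the normal sample of mouse 42, which also takes its tumors out of the blocked difference, gave 17 (17.7%). Leaving out mouse 42 altogether gave 14 (14.2%), and averaging the tumors of each mouse first gave 21 (18.9%). A stricter adjusted p under 0.01 left 17 (17.5%), while a model without the mouse gave 27 (25.3%) and one with the mouse as a random block 28 (26.2%). With cyclic loess normalization 1 member, Polr1c, passed as lower (23.7% of all genes). Ltv1 and Polr1a passed under all 33 alternatives.

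**Figure D1:**
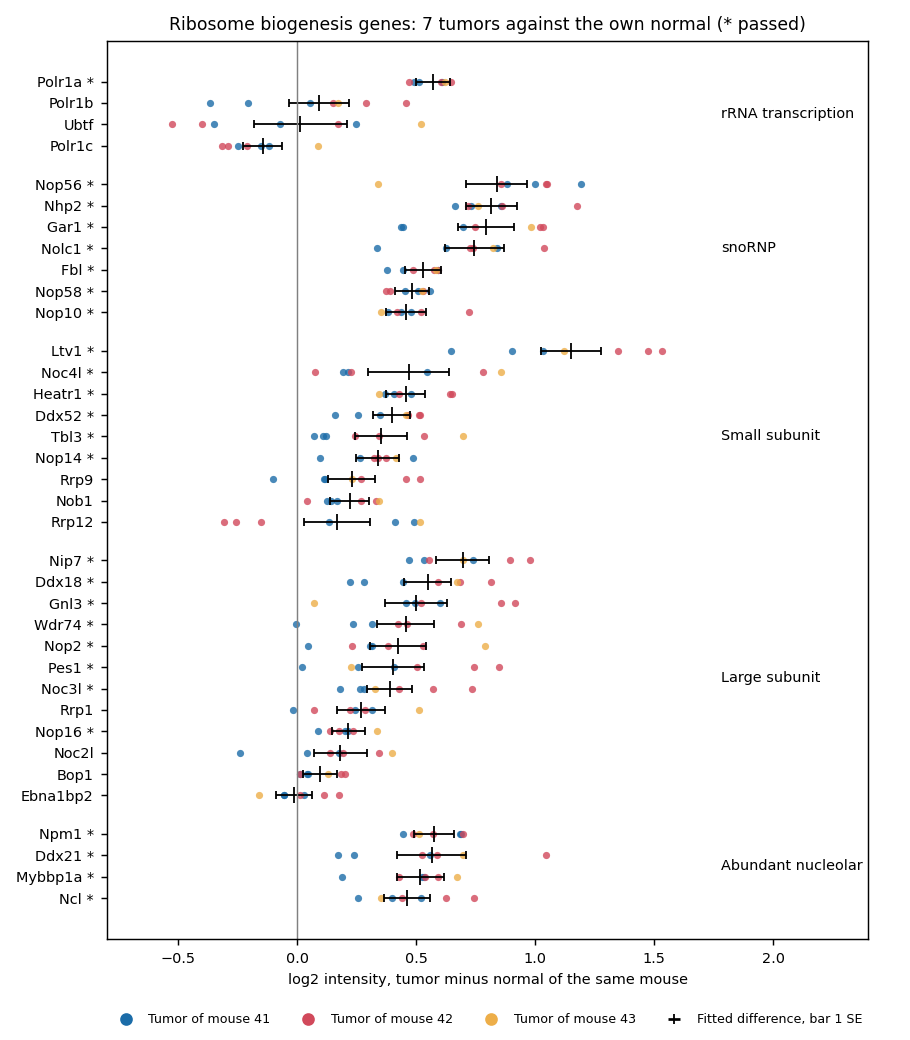
Difference between each tumor and the normal sample of its own mouse (log2 intensity, x axis) for the 36 tested members grouped by role. Points are tumors coloured by mouse, the black mark is the fitted difference with a bar of 1 SE, and an asterisk marks genes that passed; all 7 snoRNP genes lie to the right of 0 in every tumor, while Polr1b, Ubtf and Polr1c straddle it.

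Genes for rRNA transcription did not move together. Polr1a, the largest subunit of RNA polymerase I, had levels of 8.90, 8.73 and 9.04 in the normals of mice 41, 42 and 43 and of 9.19 to 9.66 in the tumors, with a median of 9.39. The groups did not overlap. It rose 1.49-fold, by 0.57 ± 0.07 on the log2 scale (fitted difference ± SE over 7 tumors and 3 normals, adjusted p = 0.000243 by limma), and differences below are given in the same form. Polr1b, the second largest subunit, measured 8.92, 8.41 and 8.83 in the normals and 8.56 to 9.005 in the tumors (median 8.72). Its groups overlapped, and its difference of 0.09 ± 0.13 did not pass (adjusted p = 0.578). Polr1c, a subunit shared with RNA polymerase III, lay at 10.93, 11.10 and 10.75 in the normals and at 10.68 to 10.89 in the tumors (median 10.81), so that 1 of 7 tumors exceeded its own normal. The difference of -0.14 ± 0.08 did not pass (adjusted p = 0.171), and a second probe of the gene gave -0.30 ± 0.11 (adjusted p = 0.0498 when all probes were tested). With the spot median the first probe gave -0.55, which did not pass. Ubtf, a factor that binds the rRNA genes and keeps them open, measured 9.23, 9.47 and 9.08 in the normals and 8.89 to 9.64 in the tumors (median 9.16). With a difference of 0.01 ± 0.20 it did not pass (adjusted p = 0.958), and the tumors bracketed the normals on both sides. The signs of Polr1b and Ubtf turned under other settings, Polr1b to -0.23 and Ubtf to -0.17 with the spot median.

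All 7 measured snoRNP genes rose, with a median difference of 0.74. Spot medians left 2 of the 7 (median 0.50), and 0 of 7 passed in the authors' deposited table (median 0.52). The box C/D class, which guides ribose methylation, is represented by Fbl (fibrillarin, the methyltransferase), Nop56 and Nop58. Fbl had levels of 11.53, 11.51 and 11.64 in the normals and 11.91 to 12.22 in the tumors (median 12.09). No tumor fell within the range of the normals, and the rise was 1.44-fold (0.53 ± 0.07, adjusted p = 0.000432). With the spot median, however, Fbl gave -0.09, and in the authors' deposited table -0.10. Nop58 measured 11.46, 11.63 and 11.59 in the normals and 11.91 to 12.16 in the tumors (median 12.01), again without overlap. Its rise was 1.397-fold (0.48 ± 0.07, adjusted p = 0.000516) and also passed with the spot median. Nop56, the other core protein of that class, was 1.79-fold higher (0.84 ± 0.13, adjusted p = 0.0007), with 1.02, 0.98 and 0.34 in mice 41, 42 and 43. Its spot-median difference of 0.67 ± 0.40 did not pass.

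The box H/ACA class guides the conversion of uridine to pseudouridine, and its proteins Nhp2, Nop10 and Gar1 also sit in telomerase. Nhp2 was measured at 9.58, 9.65 and 9.67 in the normals and at 10.25 to 10.83 in the tumors (median 10.43). The gap between the groups was wide against the spread of the normals, and the rise was 1.76-fold (0.82 ± 0.11, adjusted p = 0.0003). It passed with the spot median and missed the threshold only in the authors' deposited table, among the 33 alternatives. Gar1 lay at 11.39, 11.30 and 11.26 in the normals and at 11.83 to 12.33 in the tumors (median 12.09), without overlap. Its difference was 0.79 ± 0.12, a 1.73-fold rise (adjusted p = 0.000541). The spot-median difference was as large, 0.79, but had an SE of 0.46 and did not pass. Nop10 (0.46 ± 0.08, adjusted p = 0.00186) and Nolc1, a chaperone of both snoRNP classes (0.74 ± 0.12, adjusted p = 0.00108), were higher in 7 of 7 tumors than in the own normal. Neither passed with the spot median. A second, dimmer probe of Nolc1 gave 0.22 ± 0.07 (adjusted p = 0.0326 by limma when all probes were tested). The median of 0.74 for the 7 snoRNP genes is the value of the brighter Nolc1 probe.

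**Figure D2:**
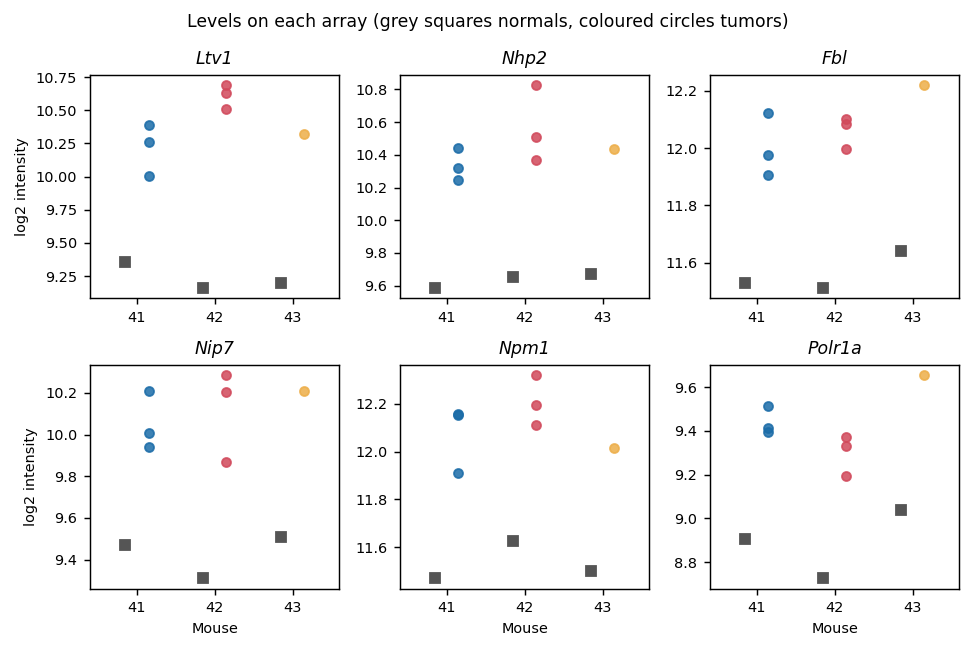
Log2 intensity of 6 members on each of the 10 arrays, by mouse (x axis). Grey squares are the normals and coloured circles the tumors, with a y axis of its own for each gene. All 6 genes come from the 22 of 36 tested members in which every tumor lies above every normal.

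Small subunit factors rose in 6 of 9 cases, with a median difference of 0.35. Only 1 of 9 passed with the spot median (median 0.13), against 9.35% of all genes. The authors' deposited table also gave 1 of 9 (11.6% of all genes), and without mouse 42 there were 2 (14.2%). Ltv1, a late assembly factor that leaves the pre-ribosome before the subunit can work, showed the greatest difference of all members. Its levels were 9.35, 9.16 and 9.20 in the normals and 10.002 to 10.69 in the tumors (median 10.39). The tumors did not overlap the normals, and the rise was 2.22-fold (1.15 ± 0.13, adjusted p = 0.000129). By mouse the difference was 0.86 in mouse 41, 1.45 in mouse 42 and 1.12 in mouse 43. Heatr1, which acts both in polymerase I transcription and in the processome that folds and cuts the precursor, measured 10.09, 9.95 and 10.23 in the normals and 10.37 to 10.60 in the tumors (median 10.57). It rose 1.37-fold (0.46 ± 0.08, adjusted p = 0.00157), against 0.12 with the spot median, which did not pass. Of its 4 kept probes, 1 was near 0 (0.04 ± 0.07), so the probes differed in size but not in sign.

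Ddx52, an RNA helicase whose yeast counterpart releases a guide RNA from the precursor, lay at 9.84, 9.68 and 9.90 in the normals and at 10.002 to 10.36 in the tumors (median 10.19). The groups did not overlap, and the rise was 1.32-fold (0.40 ± 0.08, adjusted p = 0.00253), against 0.23 with the spot median, which did not pass. Nop14, a processome scaffold protein, measured 9.08, 8.96 and 8.89 in the normals and 9.18 to 9.57 in the tumors (median 9.31). The rise was 1.26-fold (0.34 ± 0.09, adjusted p = 0.0124). The difference was 0.01 with the spot median and in the authors' deposited table, and 25 of 33 alternatives kept the call. Noc4l, the partner of Nop14 in yeast (0.47 ± 0.17, adjusted p = 0.0437), and Tbl3, a processome protein (0.35 ± 0.11, adjusted p = 0.0236), passed more narrowly, in 15 and 19 of 33 alternatives. The sign of Noc4l turned with the spot median (-0.012) and in the authors' deposited table (-0.019). Tumors of Noc4l overlapped the normals, while those of Tbl3 did not. Rrp9 (0.23 ± 0.10), Rrp12 (0.17 ± 0.14) and Nob1, the nuclease that makes the final cut of the small subunit rRNA (0.22 ± 0.08), did not pass, with adjusted p of 0.0843, 0.34 and 0.0514. For Nob1 all 7 tumors exceeded the own normal.

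Large subunit factors rose in 8 of 12 cases, with a median difference of 0.40. By spot medians 2 of 12 passed (median 0.19), against 9.35% of all genes. The authors' deposited table gave 2 of 11 (11.6% of all genes), and the fit without mouse 42 gave 2 of 12 (14.2%). Nip7, which binds the precursor of the large subunit, measured 9.47, 9.31 and 9.51 in the normals and 9.87 to 10.29 in the tumors (median 10.21). The groups did not overlap, and the rise was 1.62-fold (0.70 ± 0.11, adjusted p = 0.000849). It also passed with the spot median and in the authors' deposited table, and missed the threshold only without the 2 arrays with squamous genes. Another of its 3 kept probes gave 0.12 ± 0.07, which did not pass. Ddx18, a helicase, lay at 9.79, 9.56 and 9.74 in the normals and at 10.02 to 10.41 in the tumors (median 10.24), without overlap. It rose 1.46-fold (0.55 ± 0.10, adjusted p = 0.00171), against 0.18 with the spot median, which did not pass.

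Noc3l, which in yeast escorts the large pre-ribosome out of the nucleolus, measured 8.10, 7.74 and 8.01 in the normals and 8.16 to 8.47 in the tumors (median 8.34). The lowest tumor was close to the highest normal, and the rise was 1.31-fold (0.39 ± 0.09, adjusted p = 0.00772). Gnl3, or nucleostemin, a GTP-binding nucleolar protein abundant in stem cells, had levels of 11.02, 10.82 and 11.54 in the normals and 11.34 to 11.73 in the tumors (median 11.62). Here the groups overlapped through the normal of mouse 43, whose tumor differed from it by 0.07, against 0.52 in mouse 41 and 0.76 in mouse 42. The rise was 1.41-fold (0.50 ± 0.13, adjusted p = 0.011) and the call was lost when either of the normals of mice 41 and 42 was left out.

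The other large subunit members that rose were Wdr74 (0.46 ± 0.12), Nop2, an rRNA methyltransferase (0.42 ± 0.12), Pes1 (0.40 ± 0.13) and Nop16 (0.22 ± 0.07). Wdr74 also passed with the spot median and in the authors' deposited table, but not in 10 of the 33 alternatives, among them the fits that drop the mouse 42 normal, drop mouse 43 or add the scan session. Pes1 gave 0.02 with the spot median. The calls of Nop2 and Nop16 held in 20 and 13 of the 33. Pes1 and Bop1 work in 1 complex, yet Bop1 gave 0.10 ± 0.07 and did not pass. The third protein of that complex, Wdr12, was not above background on any array. Rrp1 (0.27 ± 0.10, adjusted p = 0.0535), Noc2l (0.18 ± 0.11, adjusted p = 0.208) and Ebna1bp2 (-0.01 ± 0.08, adjusted p = 0.916) did not pass either. The dimmest members were Bop1, Nop16 and Ebna1bp2, with tumor medians of 6.49, 6.73 and 7.07, and of these Nop16 passed.

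All 4 abundant nucleolar genes rose, by 0.46 to 0.57. Ncl (nucleolin), which binds rRNA and its chromatin, measured 9.42, 9.15 and 9.50 in the normals and 9.59 to 9.94 in the tumors (median 9.82). It rose 1.38-fold (0.46 ± 0.10, adjusted p = 0.00366), and the groups did not overlap. Npm1 (nucleophosmin), a histone chaperone and carrier of pre-ribosomes, lay at 11.47, 11.63 and 11.50 in the normals and at 11.91 to 12.32 in the tumors (median 12.16). All tumors were above all normals, and the rise was 1.49-fold (0.57 ± 0.08, adjusted p = 0.000556). Npm1 has many processed pseudogenes, so its probes may read more than 1 transcript, and a second probe gave 0.43 ± 0.15.

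Mybbp1a, a nucleolar protein that represses polymerase I, had levels of 9.98, 9.99 and 10.10 in the normals and 10.17 to 10.77 in the tumors (median 10.51). The tumors lay above the normals, by 1.43-fold (0.52 ± 0.10, adjusted p = 0.00217). Ddx21, a helicase that links rRNA transcription to processing, measured 9.76, 9.38 and 9.59 in the normals and 9.91 to 10.43 in the tumors (median 9.999). Its rise was 1.48-fold (0.57 ± 0.14, adjusted p = 0.01), with 0.32 in mouse 41, 0.72 in mouse 42 and 0.70 in mouse 43. None of these 4 genes passed with the spot median, where 9.35% of all genes passed as higher and the median difference of the 4 was 0.25.

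The 2 spot summaries differed in the sizes they gave and in precision. The median SE of the members' differences was 0.10 with the spot mean, 0.21 with the spot median and 0.29 in the authors' deposited table, while 29 of 36 differences were above 0 with the spot median. The ratio of spot mean to spot median, after local background, describes how uneven a spot is. Its median over the members ran from 1.48 in tumor 1 of mouse 41 to 2.89 in tumor 3 of mouse 42, and was 2.09 to 2.67 in the normals. Over all genes the median was lower on every array, so the members' spots were more uneven than most. It ran from 1.35 in tumor 1 of mouse 41 to 1.88 in the mouse 43 tumor, and was 1.71 to 1.84 in the normals. Single genes reached more: for Npm1 the mean ratio was 11.5 in normals and 10.99 in tumors, and for Ddx21 9.99 and 12.0. For Fbl, whose 2 values have opposite signs, it was 3.85 in normals and 5.64 in tumors. For Heatr1, whose difference was also smaller with the spot median, it went the other way, from 5.36 to 3.01. Mybbp1a, with ratios of 0.83 and 0.89, did not pass with the spot median either. Nip7, with ratios of 1.10 and 1.04, and Ltv1, with 2.603 and 1.86, passed either way. The part of uneven spots in the differences was not tested.

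**Figure D3:**
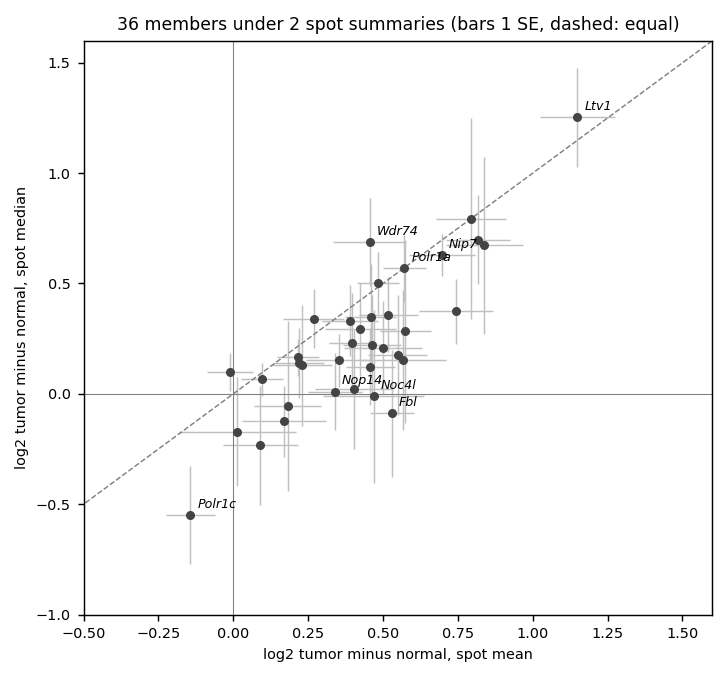
Tumor minus normal difference (log2) of the 36 members from the spot mean (x axis) and from the spot median (y axis), with bars of 1 SE and a dashed line where both are equal. Most points lie below the line with longer vertical than horizontal bars; Ltv1 is high on both axes and Fbl is below 0 on the y axis only.

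The rise was seen in each mouse. Averaged over the 36 members, the tumors lay 0.30 (tumor 3 of mouse 41) to 0.52 (mouse 43) above the mean of the normals, and the normals themselves ranged from -0.07 to 0.04. The lowest normal, from mouse 42, and the highest tumor, from mouse 43, are the 2 arrays with squamous genes. The differences in mice 42 and 43 thus each involve such an array, and only that in mouse 41 does not. Without those arrays the median difference of the members was 0.32. For the snoRNP genes the tumors lay 0.54 to 0.82 above, and for the rRNA transcription genes -0.03 to 0.32. The tumor minus normal difference was compared between mouse 42 and mouse 41, the mice with 3 tumors. Mouse 41 was male, and mouse 42 was female and had the normal array with squamous genes. Mouse, sex and that array therefore cannot be told apart in this comparison. Among the members 0 passed in this comparison by limma, as higher or lower, against 0.0622% and 0.332% of all genes, and 2 had an unadjusted p under 0.05, against 7.15% of all genes. With 1 normal sample in each mouse, this comparison has little precision: for Ltv1 the mice differed by 0.59 ± 0.24 (adjusted p = 0.669).

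Further genes of the pathway, from lists that exclude the 43, rose in part. Where a count of 5 or fewer is spelled out by genes outside the naming rule, those were named after their values were seen. Of 118 measured in 5 lists, 49 passed as higher (41.5%) and 8 as lower (6.78%), with a median difference of 0.23, against 25.9% and 23.8% of all genes. Among 43 other large subunit factors 23 rose and 3 fell. Rsl1d1 (0.70 ± 0.08) and Rrp1b (0.66 ± 0.08) led them, while Sbds, which with a GTPase frees the new subunit for use, fell by 0.58 ± 0.08, as did Eif6 (-0.37), the factor that Sbds helps to release, and Surf6 (-0.31). Among 36 other small subunit factors 12 rose and 2 fell, with Nol11 (0.66 ± 0.10) and Pno1 (0.66 ± 0.10) higher and Nol7 (-0.48 ± 0.08) and Utp11 (-0.45 ± 0.08) lower. With the spot median 4 of the 43 and 2 of the 36 passed as higher, no more than the 9.35% of all genes.

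Other snoRNP and assembly factors rose in 4 of 11 cases: Trmt112, a partner of several RNA and protein methyltransferases (0.83 ± 0.09), Ruvbl1, an ATPase used in snoRNP assembly (0.57 ± 0.10), and Tsr3 (0.52 ± 0.12) and Emg1 (0.29 ± 0.09), which modify small subunit rRNA. In the RNA exosome and RNase MRP, which trim and cut the precursor, 8 of 19 rose and 1 fell, with Exosc4 at 0.70 ± 0.11, Pop4 at 0.64 ± 0.09 and Rpp40 at -0.68 ± 0.11. Of 9 other polymerase I genes measured, 2 rose and 2 fell, 22.2% each, near the 25.9% and 23.8% of all genes. The subunits Polr1e (0.51 ± 0.08) and Polr1g (0.36 ± 0.08) rose. The terminator Ttf1 (-0.37 ± 0.07) and Taf1c (-0.39 ± 0.09), part of the factor that recruits the polymerase, fell. With the spot median 2 of 11, 2 of 19 and 0 of 9 in these lists passed as higher, against 9.35% of all genes. As lower 0, 1 and 1 passed, against 9.58%.

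**Figure D4:**
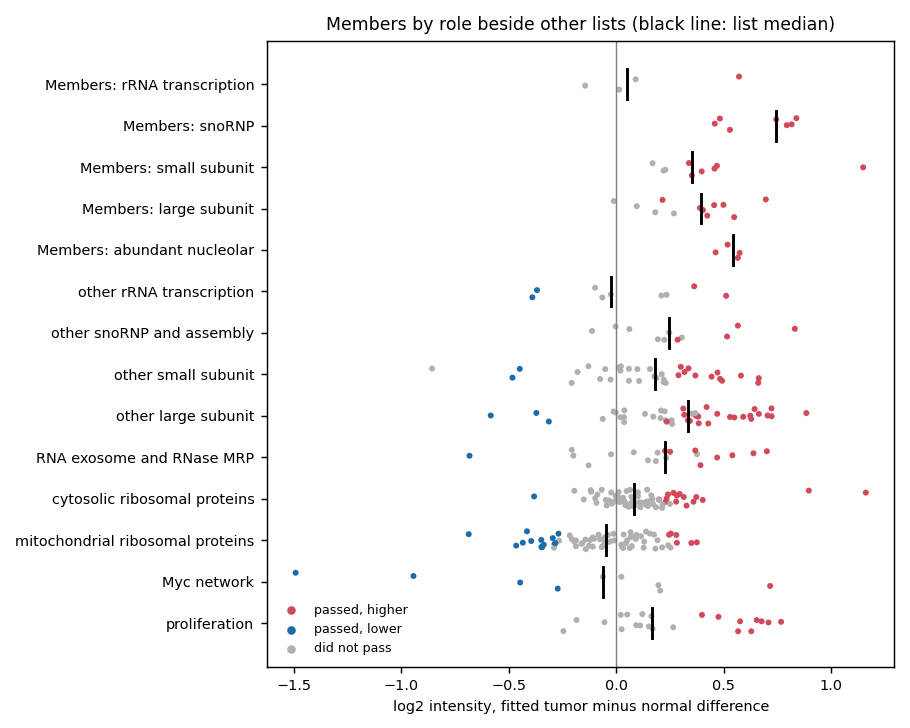
Fitted tumor minus normal differences (log2, x axis) of every measured gene in the 5 roles of the members and in 9 other lists; red points passed as higher, blue as lower, grey did not pass, and the black line is the list median. The snoRNP members have the rightmost median (0.74), and the medians of the ribosomal protein lists are 0.08 and -0.05.

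Structural proteins of the ribosome differed by small amounts. Of 74 measured genes for cytosolic ribosomal proteins 15 rose (20.3%) and 1, Rpl30 (-0.38), fell (1.35%), against 25.9% and 23.8% of all genes. Their median difference of 0.08 became -0.003 with median scaling. The number that rose became 6 with median scaling (29% of all genes) and 3 with the spot median (9.35% of all genes). Of the 74 differences, 58 were above 0, against 7348 of the 14478 of all genes, and the array mean ran from -0.06 to 0.04 in the normals and from 0.07 to 0.19 in the tumors. Rps4x (1.16 ± 0.22), Rpl13a (0.90 ± 0.10) and Rpl7 (0.36 ± 0.07) had the lowest p among them; ribosomal proteins have many pseudogenes, so their probes may not be specific. Of 71 genes for mitochondrial ribosomal proteins 6 rose and 13 fell, with Mrpl15 (-0.69 ± 0.09), Mrps9 (-0.43 ± 0.07) and Mrps24 (-0.47 ± 0.08) lower. By spot medians 1 rose and 1 fell, against 9.35% and 9.58% of all genes.

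In the Myc network, Myc itself rose 1.64-fold (0.72 ± 0.10, adjusted p = 0.000537), a call lost with the spot median and in the authors' deposited table. Mxd1, which competes with Myc for Max, fell by 1.49 ± 0.16 (adjusted p = 0.000117). Mlx, a partner of the Mxd proteins, fell by 0.94 ± 0.10. Of 9 measured genes of this network 1 rose and 4 fell, the others that fell being Max (-0.45 ± 0.10) and Mxd4 (-0.27). By spot medians 0 rose and 2 fell, where 9.35% of all genes rose and 9.58% fell. Of 22 measured proliferation genes 9 rose and 0 fell, with Mcm4 at 0.77 ± 0.09, Pcna at 0.58 ± 0.08 and Mcm7 at 0.63 ± 0.12, and 3 of 22 rose with the spot median. Their mean on an array ranged from -0.14 to 0.13 in the normals and from 0.10 to 0.54 in the tumors, so 1 tumor lay within the range of the normals.

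Markers of other cell types moved between the groups too. Fibroblast markers rose in 9 of 10 cases, with array means of -0.18 to 0.13 in the normals and 0.58 to 1.93 in the tumors, and endothelial markers rose in 8 of 8 (-0.22 to 0.27 against 0.35 to 1.00). Leukocyte markers rose in 6 of 10 and fell in 2 (-0.17 to 0.31 against 0.63 to 1.04). Epithelial markers fell in 6 of 10 and rose in 1 (-0.03 to 0.01 against -0.67 to -0.02), and smooth muscle markers fell in 5 of 8 (-0.31 to 0.50 against -0.78 to 0.07). None of the 8 squamous genes passed. All 10 epithelial markers were measured on the arrays of both groups, at mean levels of 13.21 to 13.26 in the normals and 12.57 to 13.22 in the tumors. These counts were lower by spot medians: 4 of 10 fibroblast, 1 of 8 endothelial and 5 of 10 leukocyte markers rose, and 2 of 10 epithelial and 1 of 8 smooth muscle markers fell. The part of these cell types in the members' differences was not tested.

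**Figure D5:**
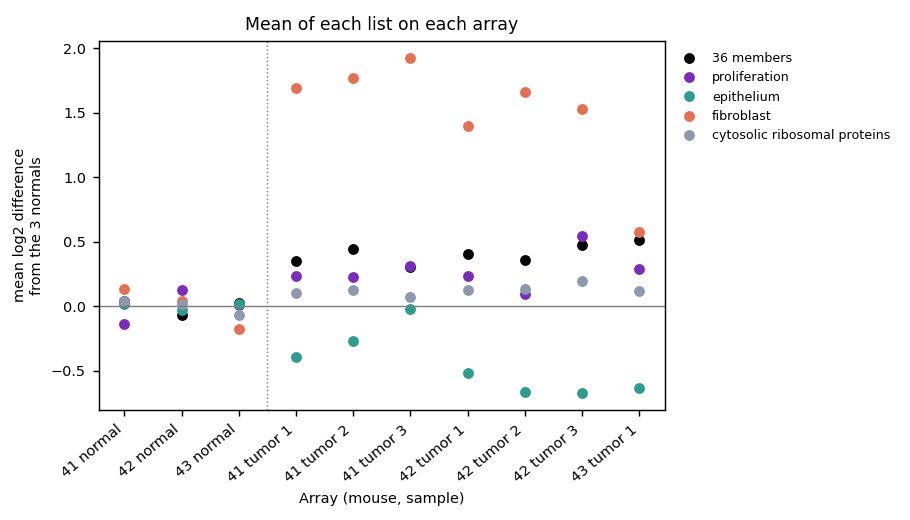
Mean log2 difference of 5 gene lists from the mean of the 3 normals, on each array (x axis, normals left of the dotted line). The 36 members lie between 0.30 and 0.52 in the 7 tumors, fibroblast markers between 0.58 and 1.93, and epithelial markers between -0.67 and -0.02.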

How the data were processed

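The authors hybridised labelled cRNA of each sample to a one-colour array with 38880 spots and deposited scanner intensities, which per the file headers come from GenePix Pro 4.1.1.4 and are linear and not normalized. Their deposited table of 19327 probes also holds intensity values. On every array these equalled a constant multiple of the background-subtracted spot median to within 0.1% in 99.95% of the probes or more. The sources used here do not say how its probes were selected.

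From the scanner files, spot means and local background medians went through normexp background correction (offset 50), and 34312 gene probes were quantile normalized. Accessions led 22982 of them to 1 symbol through RefSeq (GRCm38.p6), 5237 kept their accession, and 6093 without one were left out. Signal above background means a spot detected by the scanner software and brighter than 99 percent of its array's 432 null spots. Genes passing this on at least 3 arrays were kept, each with its brightest probe.

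The tumor minus normal difference was fitted in limma by lmFit and eBayes, and the mouse, which the labels give, entered as a block. Deviations of normals and tumors of 1 mouse from their group means correlated at 0.11, -0.067 and -0.078. The number of arrays limits precision; the median SE over all genes was 0.11.

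The members and lists were chosen with earlier results of these data known. Named array by array are up to 4 members of each role with the lowest p, 20 in all, and from each other pathway list up to 3 genes with the lowest p. Alternatives changed the background, scaling, filter, probe, model, threshold or arrays kept, 1 choice at a time. In 2 of them arrays and model changed together. The deposited table differs in spot summary, background correction, filter and probes together. Its values under 16 were set to 16 and all were quantile normalized, and no filter for signal above background was applied. Tests ran in limma 3.58.1 under R 4.3.3. Tables and figures were made in Python 3.11.15 with matplotlib 3.10.9, pandas 2.3.3 and numpy 2.4.6.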

Additional observations from a re-analysis of the deposited data

Results flagged for a closer look

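Among the 7 tumors, 2 members had a sample far from the others by Dixon's test for outliers, which chance flags in about 1 of 20 groups. Nop14 in tumor 2 of mouse 41 stood at a log2 level of 9.57, with the nearest tumor at 9.34 and the lowest at 9.18 (ratio 0.576). Nob1 in tumor 1 of mouse 42 stood at 9.63, with the nearest tumor at 9.84 and the highest at 9.95 (ratio 0.649). Both arrays belong to the later scan session. For Rrp12, all 3 tumors of mouse 41 lay above their normal (0.35 on average) and all 3 tumors of mouse 42 below theirs (-0.24). The difference between the mice of -0.58 ± 0.23 did not pass (limma adjusted p = 0.659).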

How the results depend on the processing

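The count of 26 members higher in tumors became 6 with the spot median (median difference 0.19), 4 in the authors' deposited table (0.28), 12 within the earlier scan session, 7 without the 2 arrays with squamous genes (0.32), 14 without mouse 42 and 17 at an adjusted p under 0.01. The shares of all genes called under these settings stand beside the counts in the results above. In the deposited table the share of members, 11.4%, was near that of all genes, 11.6%. Leaving out 1 array at a time gave 17 (without the normal of mouse 42) to 27. Without the replicate block 27 passed, and with the mouse as a random block 28. The count of 0 lower became 1 with cyclic loess (Polr1c). The fits without the squamous arrays and within the earlier session, without the block, were added after seeing the data. The stricter threshold calls fewer genes by construction. With the mouse as a block, a mouse informs the difference only where both of its tissues remain. Without the squamous arrays that left mouse 41 alone, and within the earlier session it left mice 41 and 42. Without the normal of mouse 42 it left mice 41 and 43. Beyond this, the cause of these shifts was not tested. Between mouse 42 and mouse 41 the count of members stayed at 0 in all settings run.

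Signs turned in 7 of the 36 members: 3 of the 20 named array by array and, in 2 to 9 alternatives each, Noc4l, Rrp12, Noc2l and Ebna1bp2, of which Noc4l had passed. Polr1b (0.09) became -0.23 by spot medians, -0.36 by the deposited values, -0.10 with the scan session as a block, -0.099 within the earlier session (-0.11 without the block), -0.17 without the squamous arrays (-0.15 without the block) and -0.033 without the normal of mouse 42 or without that mouse. Leaving out 1 array at a time gave -0.033 to 0.25. Ubtf (0.01) became -0.17 by spot medians, -0.20 by the deposited values, -0.015 with cyclic loess, -0.0065 without the replicate block, -0.0031 with a random block, -0.28 with the session as a block, -0.35 within the earlier session (-0.26 without the block) and -0.058 without the squamous arrays. Without tumor 2 of mouse 41 it was -0.036, without tumor 1 of mouse 42 -0.048 and without mouse 43 or either of its arrays -0.15, in a range of -0.15 to 0.17 over single arrays left out. Fbl (0.53) became -0.089 by spot medians and -0.10 by the deposited values.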
